A study of Mus musculus with 8 samples.

Results

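The 9 genes described here are a set of macrophage genes (*Spi1*, *Adgre1*, *Lyz2*, *Csf1r*, *Mrc1*, *Cd68*, *Marco*, *Itgax* and *P2rx1*), followed through the H3K4me3 of cells that were sorted as CD45-negative. All listed peaks that carry 1 of these gene names were taken, which gave 21 of 35486 peaks. *Marco* has no listed peak, so 8 of the 9 genes were measured, of 20871 genes in the whole table. H3K4me3 was profiled in CD45-CD31-EpCAM+ tumor cells sorted by FACS from mouse lung tumors, by an assay that the study names CUT&Tag. For it, the study's methods describe a nuclease, pAG-MNase, that an antibody brings to the histone mark and that frees the DNA there. KL mice (KrasLSL-G12D/+Lkb1fl/fl, replicates 1 and 2) were compared with KLG4m/m mice (KrasLSL-G12D/+Lkb1fl/flGpx4m/m, replicates 3 and 4), to ask which promoters differ once *Gpx4* is lost. Both groups received Ad-Cre by the nose and tamoxifen, and the tumors were taken 10 weeks after Ad-Cre. In both groups Cre acts on the engineered alleles in the lung cells the virus reaches, and in KLG4m/m mice it also switches on a tamoxifen-dependent Dre recombinase that then deletes *Gpx4* in those same cells. KL mice lack the m allele as a whole, so the allele and the loss of *Gpx4* cannot be told apart. The titles number the 4 libraries but name no mouse, and the labels' protocol speaks of 3 mice in total, so whether each library is a separate mouse is uncertain and the spread between them may be partly technical.

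Macrophages are phagocytes of the myeloid lineage, and in the lung they line the alveoli and gather in tumors. Their identity rests on the transcription factor PU.1, which *Spi1* encodes, and on signals through the CSF1 receptor, and nearly all of them carry CD45 on their surface, the marker against which these cells were sorted. H3K4me3 marks the start sites of genes that are transcribed or ready to be, so a peak at a macrophage gene in bulk chromatin can come from any cell in the tube. Here a difference in the number of cells that carry the mark cannot be told apart from a difference in the amount of mark per cell.

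The libraries held 3244495 to 3463731 reads in listed peaks, of which 1027 and 1053 reads in KL and 1179 and 1105 reads in KLG4m/m lay in the peaks of the 8 genes. A single peak of these genes held 9 to 197 reads per library, so counting error is a large part of the value at the weaker ones. The spread between replicates was close to counting error, which would give a chi-square per degree of freedom near 1. Over all peaks this was 1.13 for the KL pair and 1.23 for the KLG4m/m pair, against 2.37 to 2.80 between the groups. As the libraries may not be separate mice, the edgeR p-values and intervals below may not measure the spread between mice. Levels are reads per 1000000 reads in peaks after TMM scaling (CPM), log2 fold changes are KLG4m/m over KL, and a peak or gene was called where edgeR's quasi-likelihood test over the whole table gave an adjusted p under 0.05. The peak over the start of *Gpx4* was higher in KLG4m/m (69.6 and 68.0 CPM in KL, 88.2 and 93.2 CPM in KLG4m/m, edgeR adjusted p = 0.00854). It lies upstream of the exons that the study's methods name as deleted, so it does not check the labels.

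The promoters of *P2rx1* and *Lyz2* are printed first because a peak over each was called, higher at *P2rx1* and lower at *Lyz2*. That of *Lyz1*, the neighbour and paralog of *Lyz2*, has no listed peak and is shown for its likeness to the *Lyz2* promoter. Each is the RefSeq window of the GRCm38.p6 build from 250 bases before to 50 bases after the start site, on the strand of the gene, and capitals mark matches to the searched motifs. The peaks themselves are in the coordinates of the deposited table, which are not those of GRCm38, so the windows show the promoters and not the peaks. *P2rx1* is at chr11:72998895-72999194 on the plus strand, *Lyz2* at chr10:117282223-117282522 on the minus strand and *Lyz1* at chr10:117292819-117293118 on the minus strand.
P2rx1: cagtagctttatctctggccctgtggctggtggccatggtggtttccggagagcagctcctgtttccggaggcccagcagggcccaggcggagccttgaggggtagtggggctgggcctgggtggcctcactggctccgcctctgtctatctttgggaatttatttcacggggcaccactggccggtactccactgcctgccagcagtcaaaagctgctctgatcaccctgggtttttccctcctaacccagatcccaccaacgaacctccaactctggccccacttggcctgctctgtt
Lyz2: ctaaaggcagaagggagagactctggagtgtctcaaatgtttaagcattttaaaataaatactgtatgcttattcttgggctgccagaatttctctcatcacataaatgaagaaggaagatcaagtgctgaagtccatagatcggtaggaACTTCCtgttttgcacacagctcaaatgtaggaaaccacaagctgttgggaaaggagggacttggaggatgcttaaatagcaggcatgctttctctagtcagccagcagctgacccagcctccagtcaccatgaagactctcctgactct
Lyz1: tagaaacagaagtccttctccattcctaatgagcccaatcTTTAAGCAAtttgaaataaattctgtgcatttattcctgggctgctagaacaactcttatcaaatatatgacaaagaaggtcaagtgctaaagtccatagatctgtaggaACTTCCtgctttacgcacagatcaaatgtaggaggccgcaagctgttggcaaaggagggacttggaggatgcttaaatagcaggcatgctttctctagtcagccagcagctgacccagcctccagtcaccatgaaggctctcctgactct
The window of *P2rx1* is rich in G and C (60.7%) and holds none of the 5 motifs searched. Those of *Lyz2* and *Lyz1* have a GC content of 44.3% each and are identical at 249 of 298 aligned bases (83.6%). Both hold GGAAGT, the core that PU.1 and other ETS factors bind, on the minus strand from position -100 to -95 before the start site, read here as its complement. *Lyz1* alone of the pair also holds TTGCNNNAA, from position -210 to -202. This pattern was searched for C/EBP factors, and whether a match to it is a C/EBP site was not checked.

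The motifs were searched on both strands of the windows of the 6 member genes found in the table of promoters, namely *Lyz2*, *Mrc1*, *Cd68*, *Marco*, *Itgax* and *P2rx1*. GGAAGT was found in *Lyz2*, *Mrc1*, *Cd68* and *Itgax*, and it is present in 23.8% of all 32851 promoter windows. TGANTCA, the AP-1 motif, was found in *Cd68* at 2 places and in *Itgax* at 1 place, against 7.81% of all windows. GAGGAAGT, the longer PU.1 motif that contains GGAAGT, TTGCNNNAA and TATAAA, the TATA box, were in none of the 6 windows, and 3.2%, 9.56% and 13.6% of all windows hold them. *Marco*, which had no listed peak, matched no motif, as did *P2rx1*.

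H3K4me3 at the macrophage genes did not move one way in KLG4m/m tumor cells. Of the 21 peaks, 2 were called higher in KLG4m/m, 1 of *Spi1* and 1 of *P2rx1*, where 3.10% of all listed peaks were, and 2 were called lower, both of *Lyz2*, where 5.52% of all listed peaks were. Without a correction, 8 were higher and 3 lower at p under 0.05. Both KLG4m/m libraries lay above both KL libraries at 11 of the 21 peaks and below them at 6, while this was so at 27.5% and 26.6% of all listed peaks. Over the 21 peaks the log2 fold change had a median of 0.18, and over all peaks 0.01. When reads were added up per gene, 3 of the 8 genes were called higher (*Spi1*, *Adgre1* and *P2rx1*) and 1 lower (*Lyz2*), against 5.38% and 9.63% of all genes, and the median log2 fold change was 0.21 against 0.00 for all genes. The rise at *P2rx1* was known when the set was put together, so its call describes a known result. The other members were also chosen with earlier results of these data known, so these shares are no test of an excess.

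**Figure D1:**
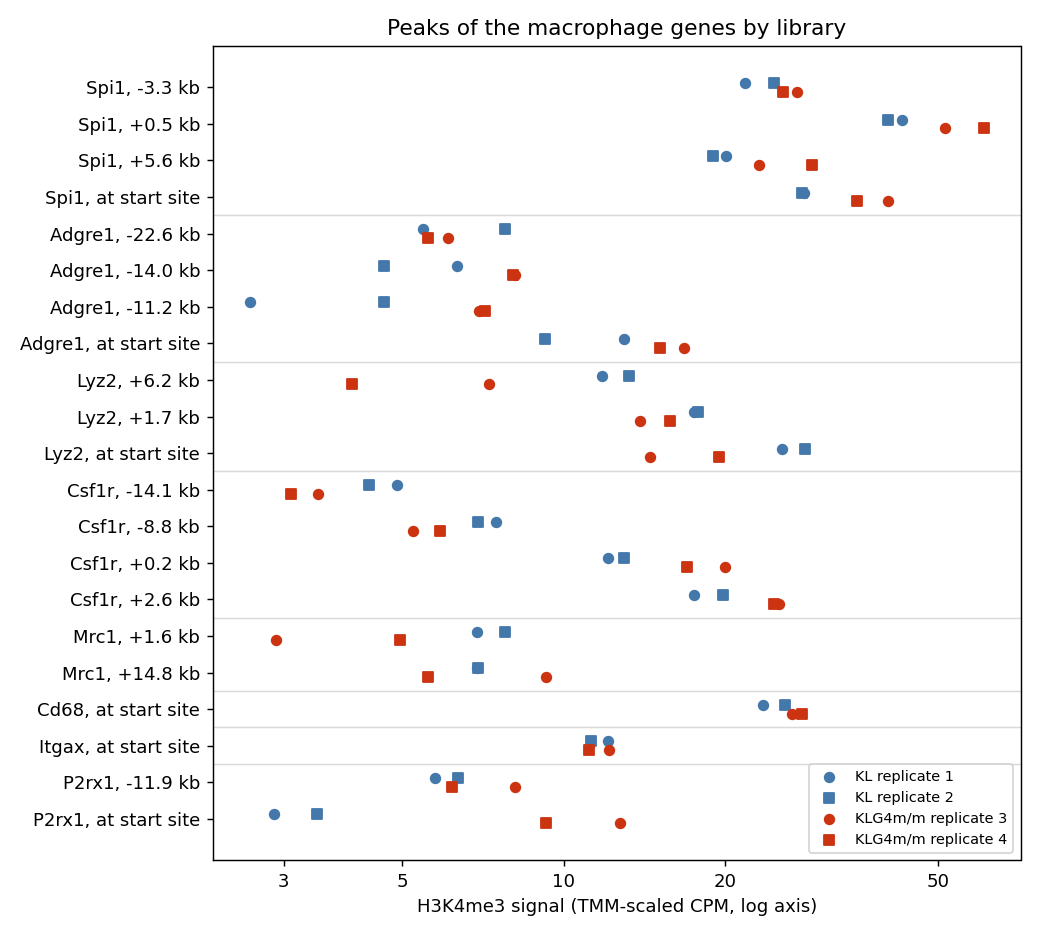
H3K4me3 signal in TMM-scaled CPM (log axis) at each of the 21 peaks of the 8 genes in the 4 libraries, KL in blue and KLG4m/m in red. Distances are those of the deposited table to the nearest annotated transcript start, negative upstream. Red points lie to the right of blue ones at all 4 peaks of Spi1 and to the left at all 3 peaks of Lyz2. Of all listed peaks, 27.5% and 26.6% part in these ways.

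The calls rest on few libraries. Without KLG4m/m replicate 3, and likewise without replicate 4, edgeR called 0 peaks and 0 genes in the whole table, where 2251 and 2228 peaks were still higher at an unadjusted p under 0.05 and 3235 and 2950 were lower. Among the 21 peaks, 3 were then higher and 1 lower at that limit without replicate 3, and 3 were higher and 3 lower without replicate 4. DESeq2 called 0 of the 21 peaks in either direction, with 2 higher and 2 lower at an unadjusted p under 0.05, and gave no adjusted p to 9 of them. An exact permutation test of 2 against 2 libraries cannot go below 0.333.

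**Figure D2:**
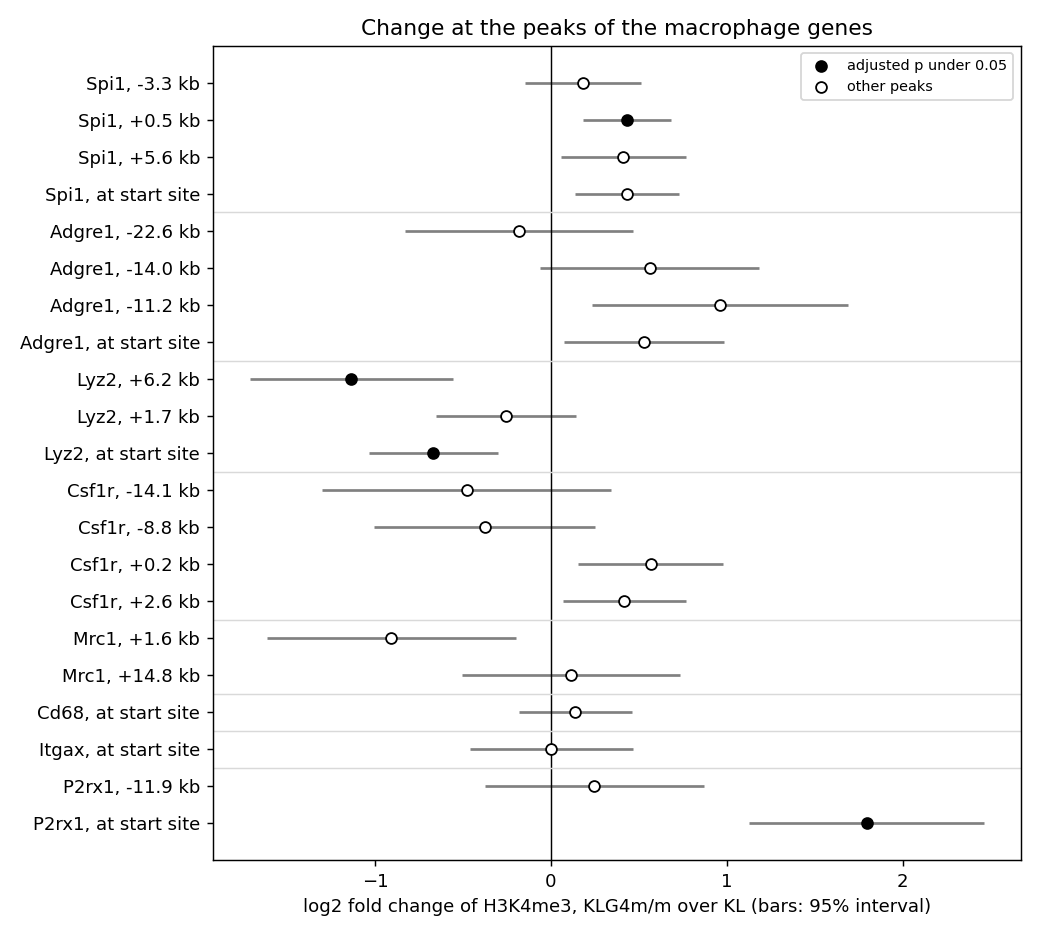
Log2 fold change of H3K4me3 (KLG4m/m over KL) at the 21 peaks, with 95% intervals from the edgeR fit. Filled points passed the threshold: 2 peaks above 0, at Spi1 and P2rx1, and 2 below 0, both at Lyz2, while 17 did not pass.

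*Spi1*, which encodes PU.1, the factor that macrophage and B cell programs depend on, held the strongest signal of the set and rose in KLG4m/m. Summed over its 4 peaks, the signal was 113 and 112 CPM in the KL libraries and 143 and 151 CPM in the KLG4m/m libraries. The lower of the KLG4m/m libraries thus stood above both KL libraries, and the difference of 1.30-fold (log2 fold change 0.38, standard error 0.0778) passed the threshold (edgeR adjusted p = 1.39e-04). The peak called by itself lies at chr2:90913258-90913658, over the first 1 kb of the longer transcript NM_001378899.1 and 13.6 kb upstream of the start of NM_011355.2. It held 42.9 and 40.3 CPM in KL and 51.6 and 61.0 CPM in KLG4m/m (log2 fold change 0.43, standard error 0.122, edgeR adjusted p = 0.0262). At the start of NM_011355.2, chr2:90926926-90927326, the level was 28.2 and 27.9 CPM in KL and 40.3 and 35.3 CPM in KLG4m/m. This peak had the same log2 fold change, 0.43 with a standard error of 0.143, and missed the threshold (edgeR adjusted p = 0.0592). Between these peaks, the peak in intron 1 (chr2:90918309-90918709) held 20.1 and 19.0 CPM in KL and 23.2 and 29.1 CPM in KLG4m/m (log2 fold change 0.41, edgeR adjusted p = 0.135). The intergenic peak farthest upstream, chr2:90909095-90909495, held 21.9, 24.8, 27.3 and 25.7 CPM in the same order (log2 fold change 0.18, edgeR adjusted p = 0.511). So all 4 peaks of *Spi1* had both KLG4m/m libraries above both KL libraries, as had 27.5% of all listed peaks, and their values lay between 0.18 and 0.43. The gene was no longer called without KLG4m/m replicate 3 (0.42, edgeR adjusted p = 0.137) or replicate 4 (0.34, edgeR adjusted p = 0.190), nor with a 1.5-fold change asked for. The called peak was lost without KL replicate 2 (0.39, edgeR adjusted p = 0.144), without KLG4m/m replicate 3 (0.55, 0.307) or 4 (0.31, 0.343), under DESeq2 (0.43, 0.431) and with the 1.5-fold change.

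*Adgre1* encodes F4/80, the surface receptor by which mouse macrophages are usually recognised, and its summed signal rose. Its 4 peaks held 27.4 and 26.2 CPM in the KL libraries and 38.1 and 35.8 CPM in the KLG4m/m libraries (log2 fold change 0.46, standard error 0.151, edgeR adjusted p = 0.0234). No peak passed by itself. The peak at the start site, chr17:57665695-57666095, held 12.9 and 9.22 CPM in KL and 16.8 and 15.2 CPM in KLG4m/m (log2 fold change 0.53, edgeR adjusted p = 0.134). The peak 11.2 kb upstream, chr17:57654000-57654400, was the one with the largest ratio and among the weakest, at 2.59 and 4.61 CPM in KL and 6.96 and 7.12 CPM in KLG4m/m (0.96, standard error 0.355, edgeR adjusted p = 0.0909). The remaining upstream peaks held 4.61 to 8.12 CPM per library, with log2 fold changes of 0.56 (edgeR adjusted p = 0.255) and -0.18 (edgeR adjusted p = 0.773), and the libraries of the groups overlapped at the latter. The summed call was the least firm of the 4 and held in 5 of 13 alternatives, with the adjusted p running from 0.0234 to 0.350. It was lost without any 1 of the 4 libraries (log2 fold change 0.42 to 0.51, edgeR adjusted p 0.0820 to 0.220), under DESeq2 (0.47, 0.350), and with only promoter peaks (0.54, edgeR adjusted p = 0.0959).

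*Csf1r*, the receptor for the macrophage growth factors CSF1 and IL-34, had values that went apart along the locus, and none was called. The peak just inside the gene, chr18:61238847-61239247, held 12.1 and 13.0 CPM in KL and 20.01 and 17.03 CPM in KLG4m/m (log2 fold change 0.57, standard error 0.201, edgeR adjusted p = 0.0782). The next peak, 2.6 kb into the gene, held 17.5 and 19.9 CPM in KL and 25.2 and 24.8 CPM in KLG4m/m (0.42, standard error 0.171, edgeR adjusted p = 0.126). At both, the KLG4m/m libraries were above the KL libraries, as at 27.5% of all listed peaks. The 2 intergenic peaks 8.8 and 14.1 kb upstream were weak, at 3.10 to 7.48 CPM per library, and had log2 fold changes of -0.37 (edgeR adjusted p = 0.480) and -0.48 (edgeR adjusted p = 0.489). Summed over the 4 peaks, the gene had 43.1 ± 1.38 CPM in KL and 52.3 ± 2.45 CPM in KLG4m/m (SD, n = 2 each), a log2 fold change of 0.28 (95% interval 0.03 to 0.53) that missed the threshold (edgeR adjusted p = 0.114). With only its promoter peaks summed, the gene passed it (0.49, edgeR adjusted p = 0.0102).

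*P2rx1* encodes an ATP-gated cation channel that is known from platelets and smooth muscle and is also made by myeloid cells. Its promoter peak showed the widest difference of the 21. The peak, chr11:72889560-72889960, reaches from 322 bp upstream to 78 bp downstream of the start of XM_006532451.2, which the deposited table uses. From that start the gene spans 16145 bp, against 16056 bp from the start of the printed window, so the peak may not cover the latter. The peak held 10 and 12 reads in KL against 44 and 30 in KLG4m/m. This was 2.88 and 3.46 CPM against 12.8 and 9.29 CPM, so that the groups lay far apart, a 3.48-fold difference (log2 fold change 1.79, standard error 0.324, 95% interval 1.13 to 2.46, edgeR adjusted p = 8.58e-04). The promoter was weak, at the 14.2 percentile of all promoter peaks by its mean over the libraries. The other peak named for *P2rx1* lies 11.9 kb upstream in an intron of *Atp2a3*, a calcium pump gene, and held 5.75 and 6.34 CPM in KL and 8.12 and 6.19 CPM in KLG4m/m. There the groups overlapped (0.25, edgeR adjusted p = 0.659). The 2 peaks summed gave 9.22 ± 0.804 CPM in KL and 18.2 ± 3.89 CPM in KLG4m/m (SD, n = 2 each), and their log2 fold change was 0.98 with an edgeR adjusted p of 8.78e-04. The peak was not called without KLG4m/m replicate 3 (1.54, edgeR adjusted p = 0.307) or replicate 4 (2.00, 0.337), and DESeq2 gave it no adjusted p. The gene lost its call likewise (0.74, edgeR adjusted p = 0.193, and 1.18, 0.190) and under DESeq2 (0.98, 0.128).

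Of the promoter peaks of other genes, those with the 4 values most like the *P2rx1* promoter belonged to *Pkp1*, which encodes a desmosomal plakophilin, *St6galnac5*, a sialyltransferase gene, and *Gpa33*, which encodes an epithelial surface antigen. Likeness was the Euclidean distance of the log2(CPM + 1) values over the 4 libraries, which was 0.315, 0.460 and 0.529. *Pkp1* held 2.88 and 2.88 CPM in KL and 12.2 and 7.74 CPM in KLG4m/m. Among the receptors of the P2X family, *P2rx1* was the gene called higher and *P2rx5* was called lower (24.5 ± 1.66 CPM in KL, 16.5 ± 0.154 CPM in KLG4m/m, SD, n = 2 each, log2 fold change -0.57, edgeR adjusted p = 0.0218). Of the others, *P2rx2*, *P2rx4*, *P2rx6* and *P2rx7* were not called, with log2 fold changes from -0.33 to 0.02, and *P2rx3* had no listed peak.

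*Lyz2* encodes lysozyme M, an enzyme that breaks bacterial cell walls, which macrophages and neutrophils make in large amounts and which alveolar type 2 cells also make. At all 3 of its peaks both KLG4m/m libraries lay below both KL libraries, as at 26.6% of all listed peaks. The peak over the start site, chr10:117117898-117118298, held 89 and 98 reads in KL and 50 and 63 reads in KLG4m/m. In CPM this was 25.6 and 28.2 against 14.5 and 19.5, with no overlap (log2 fold change -0.67, standard error 0.179, edgeR adjusted p = 0.0197). The peak 6.2 kb downstream of the start, beyond the end of the gene at chr10:117111532-117111932, fell from 11.8 and 13.2 CPM to 7.25 and 4.03 CPM (-1.13, standard error 0.282, edgeR adjusted p = 0.0119). Between them, the peak 1.7 kb into the gene held 17.5 and 17.9 CPM in KL and 13.9 and 15.8 CPM in KLG4m/m and was not called (-0.26, edgeR adjusted p = 0.444). The 3 peaks together gave 55.1 and 59.3 CPM in KL and 35.7 and 39.2 CPM in KLG4m/m (log2 fold change -0.61, standard error 0.127, edgeR adjusted p = 1.57e-04). This was the steadiest call of the set and held in 11 of 13 alternatives, the exceptions being the fits without KLG4m/m replicate 3 (-0.55, edgeR adjusted p = 0.151) or replicate 4 (-0.68, 0.190). The start site peak was lost in those fits (-0.47, edgeR adjusted p = 0.324, and -0.89, 0.337), without KL replicate 2 (-0.60, 0.112) and under DESeq2 (-0.67, 0.388). The downstream peak was lost in the same 4 settings, at -1.63 (edgeR adjusted p = 0.307) and -0.78 (0.337) without the KLG4m/m replicates, -1.05 (0.0533) without KL replicate 2 and -1.15 (0.307) under DESeq2.

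*Lyz1*, the lysozyme P gene next to *Lyz2*, has no listed peak at the promoter printed above, and the sum of its listed peaks was lower too. Its 2 peaks held 14.5 ± 1.82 CPM in KL and 9.17 ± 1.87 CPM in KLG4m/m (SD, n = 2 each), with a log2 fold change at -0.67 and an edgeR adjusted p of 0.0446, and both are distal intergenic peaks. The peak 37.7 kb upstream was called, at 19 and 24 reads in KL and 5 and 10 reads in KLG4m/m (-1.45, edgeR adjusted p = 0.0319). The peak 5.4 kb upstream was not (-0.28, edgeR adjusted p = 0.584). The mapping filter removed reads of low mapping quality, and reads shared by near-identical stretches of the pair were not traced here. Of 10 alveolar type 2 genes with a peak, 7 were called lower in KLG4m/m, among them *Sftpb* (-0.65, edgeR adjusted p = 2.84e-04), against 9.63% of all genes. That list was chosen with earlier results of these data known, and the part of these genes in the values of *Lyz2* was not tested.

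The scavenger receptors and the integrin gave small or uncertain values. *Mrc1* encodes CD206, the mannose receptor of alternatively activated and alveolar macrophages, and its promoter peak had the lowest mean of the 8 genes over the 4 libraries. That peak, 1.6 kb into the gene at chr2:14235841-14236241, held 24 and 27 reads in KL and 10 and 16 reads in KLG4m/m, which was 6.90 and 7.78 CPM against 2.90 and 4.95 CPM (log2 fold change -0.91, standard error 0.344, edgeR adjusted p = 0.0990). The peak in exon 3, chr2:14249062-14249462, held 6.90, 6.91, 9.28 and 5.57 CPM, and the groups overlapped (0.11, edgeR adjusted p = 0.854). *Marco*, a scavenger receptor gene of alveolar macrophages, had no listed peak. *Cd68*, a lysosomal membrane glycoprotein gene, has 1 peak over its start site, chr11:69556837-69557237. It held 23.6 and 25.9 CPM in KL and 26.7 and 27.9 CPM in KLG4m/m, a log2 fold change of 0.14 with a 95% interval of -0.18 to 0.46 (edgeR adjusted p = 0.627). *Itgax*, which encodes the integrin chain CD11c of alveolar macrophages and dendritic cells, has 1 peak over a start site, chr7:127728437-127728837. Its 4 libraries lay at 12.1, 11.2, 12.2 and 11.1 CPM, and the log2 fold change was 0.00 with a 95% interval of -0.46 to 0.47 (edgeR adjusted p = 0.997), whose sign turned under several alternatives. The interval leaves room for a change of that size in either direction. Among the other integrin alpha chain genes looked at, *Itgal* (CD11a) and *Itgam* (CD11b) were called higher, with log2 fold changes of 0.42 (edgeR adjusted p = 0.0151) and 0.56 (edgeR adjusted p = 8.33e-05), *Itgae* was not (0.20, edgeR adjusted p = 0.374), and *Itgad* had no listed peak.

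The macrophage promoters were mostly weak. All but 1 of the listed peaks are 400 bp long, and their levels are set side by side here, but they do not all cover a start site. The peak ranked below lies 2.6 kb into the gene for *Csf1r*, 1.6 kb for *Mrc1* and 0.51 kb for *Spi1*. Those of *Cd68*, *Lyz2*, *Adgre1*, *Itgax* and *P2rx1* cover an annotated start. The strongest promoter peak of a gene had a median of 42.3 CPM over 16728 genes, with a middle 50% from 14.9 to 69.5 CPM, and the median of the 8 genes was 17.7 CPM. *Spi1* stood highest at 49.0 CPM, the 56.2 percentile of those genes. *Cd68* (26.02 CPM), *Lyz2* (21.96 CPM) and *Csf1r* (21.9 CPM) came next, at percentiles between 32.4 and 36.3. *Adgre1* (13.5 CPM), *Itgax* (11.7 CPM), *P2rx1* (7.096 CPM) and *Mrc1* (5.63 CPM) followed below the lower quartile. The ranges over the 4 libraries overlapped between neighbours in this order, except between *Spi1* and *Cd68* and between *Csf1r* and *Adgre1*. These means pool groups that differ, and the order was not the same in each. In KL, the libraries of *Lyz2* (25.6 and 28.2 CPM) overlapped those of *Cd68* (23.6 and 25.9 CPM) and lay above those of *Csf1r* (17.5 and 19.9 CPM). In KLG4m/m, the libraries of *Lyz2* (14.5 and 19.5 CPM) lay below those of *Cd68* (26.7 and 27.9 CPM) and *Csf1r* (25.2 and 24.8 CPM). *P2rx1* was lowest in KL, at 3.17 CPM against 7.34 CPM for *Mrc1*, and *Mrc1* was lowest in KLG4m/m, at 3.93 CPM against 11.02 CPM for *P2rx1*, with no overlap of libraries in either group. For comparison, *Epcam*, for which the cells were sorted, had 32.4 CPM, *Ptprc*, the CD45 gene against which they were sorted, had 40.5 CPM and *Pecam1*, the CD31 gene, had 14.8 CPM.

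**Figure D3:**
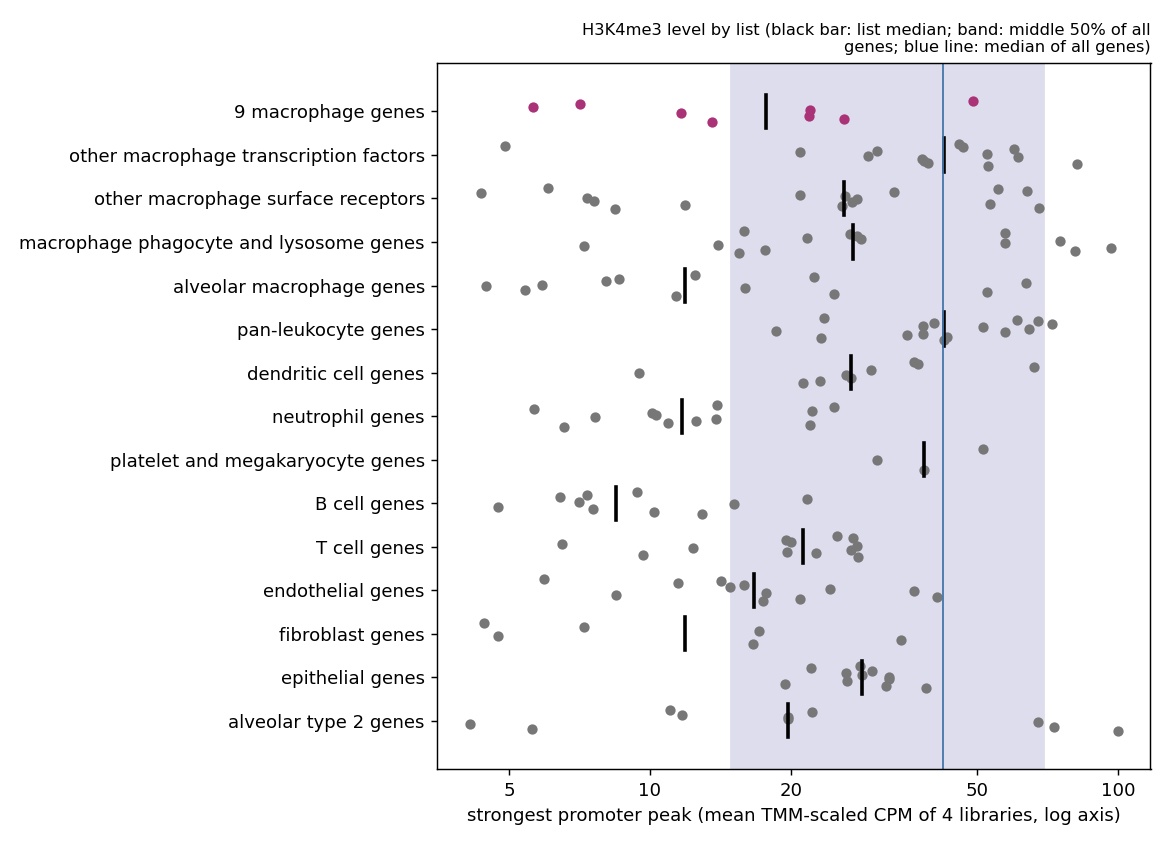
Mean H3K4me3 of the strongest promoter peak of each gene over the 4 libraries (TMM-scaled CPM, log axis), by list, with list medians as black bars. The band is the middle 50% of 16728 genes, 14.9 to 69.5 CPM, and the blue line is their median of 42.3 CPM. Spi1 at 49.0 CPM is the only one of the 8 macrophage genes to the right of that line.

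The neighbourhood of the 3 genes with called peaks differed from locus to locus. Around *Spi1*, none of the 7 peaks of other genes within 100 kb of its start was called, and their median log2 fold change was -0.15, while all 4 peaks of *Spi1* were above 0. Around *Lyz2*, 6 of 7 such peaks were below 0 and 2 were called lower, a distal peak of *Lyz1* (-1.45, edgeR adjusted p = 0.0319) and the promoter of *Cpsf6* (-0.73, edgeR adjusted p = 0.0115). Around *P2rx1*, 11 of 12 were above 0 and 3 were called higher, at *Gm34704* (1.57, edgeR adjusted p = 2.97e-06), *Atp2a3* (0.38, edgeR adjusted p = 0.0274) and an intron of *Camkk1* (0.70, edgeR adjusted p = 0.0248). Of all 35486 listed peaks, 3.10% were called higher and 5.52% lower, and 18107 were above 0. These called neighbours were picked after their values were seen. The nearest listed peaks of other genes within 50 kb were not called, namely those of *Lyz3* (-1.03, edgeR adjusted p = 0.204), *Lyz1* (-0.28, edgeR adjusted p = 0.584) and the promoter of *Camkk1* (-0.09, edgeR adjusted p = 0.606).

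**Figure D4:**
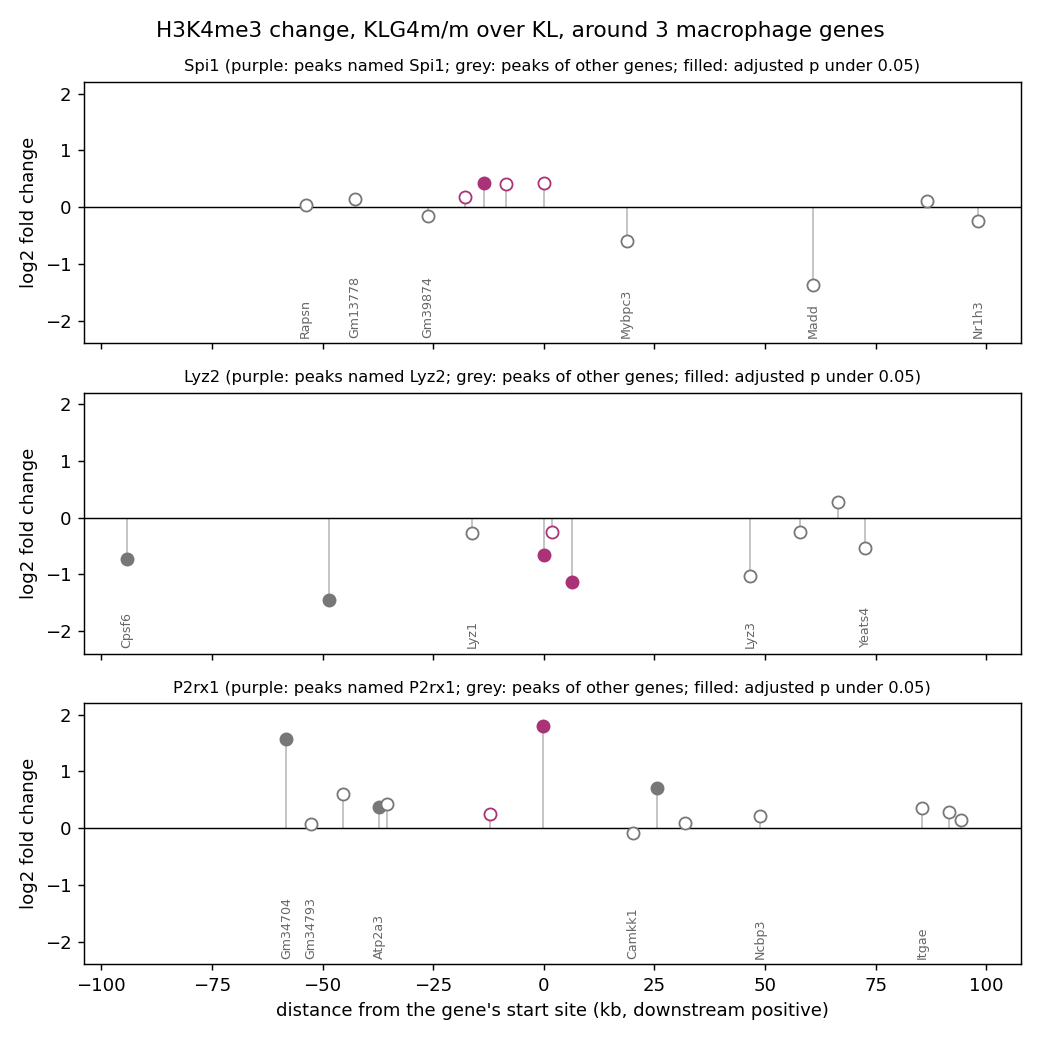
Log2 fold change (KLG4m/m over KL) of every listed peak within 100 kb of the start sites of Spi1, Lyz2 and P2rx1, by distance in kb along the gene's direction. Filled points passed the threshold: 0 of the 7 grey peaks around Spi1, 2 of 7 around Lyz2, both below 0, and 3 of 12 around P2rx1, all above 0. Of all listed peaks, 3.10% passed above 0 and 5.52% below 0.

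Of the other macrophage genes, 57 on 4 lists had a peak, and 7 of these (12.3%) were called higher and 1 (1.75%) lower, against 5.38% and 9.63% of all genes. Of 15 other macrophage transcription factors, 14 had a peak and 2 were called higher, *Fli1* (log2 fold change 0.28, edgeR adjusted p = 0.00596) and *Cebpb* (0.30, edgeR adjusted p = 0.0368), while *Cebpa* stood at -0.02 (edgeR adjusted p = 0.887). Of 20 surface receptors, 17 had a peak and 1 was called higher, *Csf2rb*, a receptor chain for GM-CSF (0.32, edgeR adjusted p = 0.0382). The phagocyte and lysosome list of 18 genes had 14 with a peak and 4 called higher. Among these were *Ncf4* (log2 fold change 0.42, edgeR adjusted p = 2.11e-04) and *Cyba* (0.22, edgeR adjusted p = 0.0306), which encode subunits of the phagocyte oxidase. Of 15 alveolar macrophage genes, 12 had a peak, none was called higher and *Chil3* was called lower (-0.82, edgeR adjusted p = 0.0142). *Siglecf*, the receptor that marks alveolar macrophages, stood at 0.26 (edgeR adjusted p = 0.248). The list medians were 0.03, 0.10, 0.17 and -0.12 in this order, against 0.00 for all genes.

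Markers of other cell types the sort could hold were called as well, where 5.38% of all genes were called higher and 9.63% lower. Of 16 pan-leukocyte genes, 15 had a peak, all 15 were above 0 and 9 were called higher, with a median of 0.30. *Arhgdib* (0.50, edgeR adjusted p = 6.73e-05), *Itgam* and *Rac2* (0.44, edgeR adjusted p = 8.93e-05) had the smallest p, and *Ptprc* itself was not called (57.0 ± 3.60 CPM in KL, 66.5 ± 5.03 CPM in KLG4m/m, SD, n = 2 each, 0.22, edgeR adjusted p = 0.163). The summed level of this list was 1210 CPM in both KL libraries and 1475 and 1459 CPM in the KLG4m/m libraries. The 8 macrophage genes summed to 296 and 303 CPM in KL and 343 and 341 CPM in KLG4m/m. Of this, *Spi1* held 113 and 112 CPM in KL and 143 and 151 CPM in KLG4m/m, while *Lyz2* (-0.61) and *Mrc1* (-0.33) were below 0. With 2 libraries per group, these sums cannot show whether the lists vary together. Neutrophil genes (5 of 14 called higher, median 0.44, *Mmp9* 0.68), B cell genes (5 of 10 with a peak, median 0.56, *Bank1* 1.34) and T cell genes (3 of 12, median 0.24, *Cd3d* 0.45) were called in the same direction where they were called. The dendritic cell list was mixed, with 1 of 9 called higher (*Ccr7*, 0.39) and 4 called lower (*H2-Eb1* -0.43, *Ciita* -0.47, *H2-Aa* -0.34 and *Cd74* -0.43). These 4 belong to the MHC class II pathway and are not markers of dendritic cells alone. *Zbtb46* (-0.29), *Batf3* (-0.02) and *H2-Ab1* (-0.10) were not called. In that list 2 of 9 genes were above 0, *Ccr7* and *Flt3* (0.43, edgeR adjusted p = 0.164, not called). Of the 6 genes with a peak in the platelet and megakaryocyte list, *Itgb3* was called higher (0.37) and *Gp5* lower (-0.43), and the summed level was 174 to 181 CPM in all 4 libraries. Calls were all lower among alveolar type 2 genes (7 of 10, median -0.54) and epithelial genes (2 of 11, median -0.13). *Epcam* fell from 55.0 ± 3.60 to 31.2 ± 3.13 CPM (SD, n = 2 each, -0.82, edgeR adjusted p = 1.56e-06) and *Sftpa1* by 1.22 on the log2 scale. Endothelial genes had 1 called higher (*Erg*) and 2 lower of 12, and fibroblast genes 1 called higher (*Pdgfrb*) of 6 with a peak. Across the 14 lists without the 9 genes, 33 of 162 genes with a peak (20.4%) were called higher and 17 (10.5%) lower, the latter close to the share of all genes. All lists, those of other macrophage genes included, were chosen with earlier results of these data known. Their shares therefore describe the lists and are no test of an excess over all genes. How far cells of these types account for the values of the macrophage genes was not tested.

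**Figure D5:**
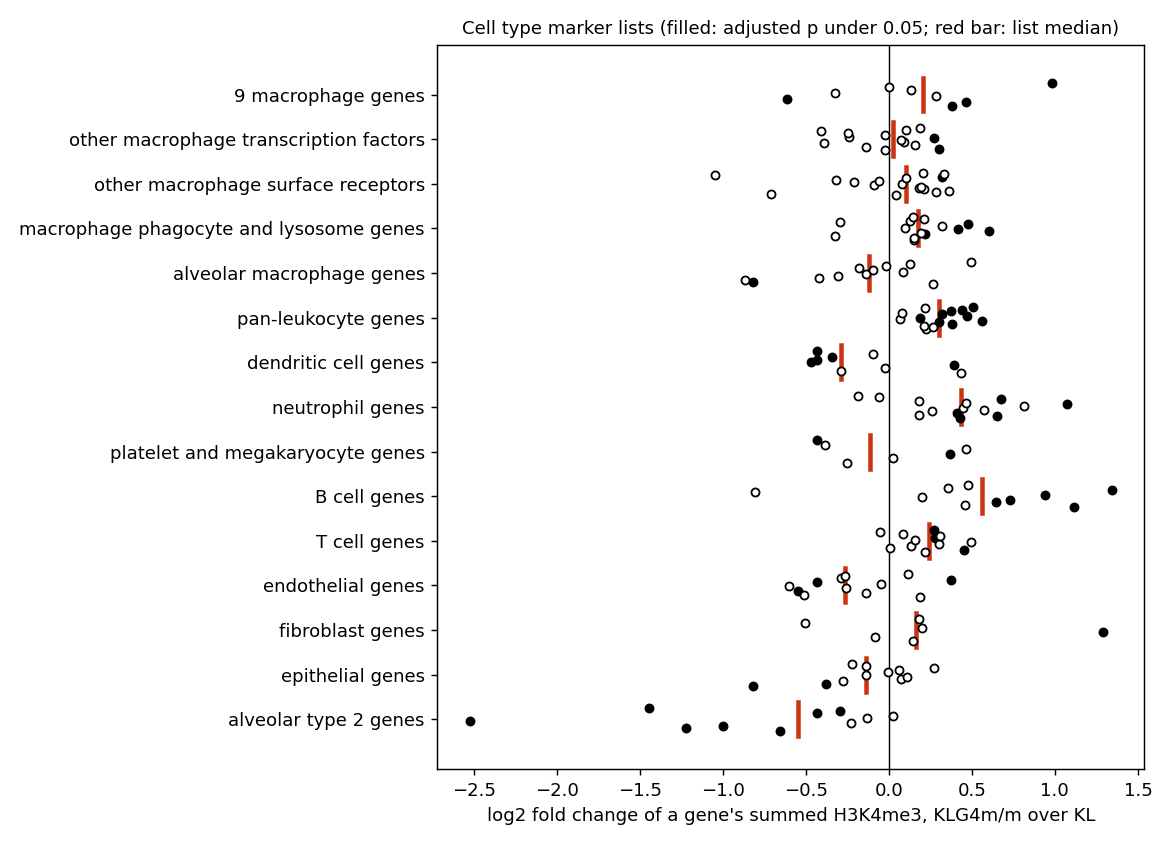
Log2 fold change (KLG4m/m over KL) of the summed H3K4me3 of each gene, by list, with list medians as red bars and filled points for genes past the threshold. The medians are 0.21 for the 9 macrophage genes, of which 8 have a peak, 0.30 for pan-leukocyte genes, 0.56 for B cell genes and -0.54 for alveolar type 2 genes.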

How the data were processed

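H3K4me3 CUT&Tag was analysed in 4 libraries of FACS-sorted tumor cells, 2 from KL and 2 from KLG4m/m mice. The H3K27ac libraries were not analysed here. Reads were trimmed with Trim Galore 0.6.10, mapped with BWA 0.7.15, cleared of mitochondrial reads, reads with a mapping quality under 30 and duplicates (Picard 2.17.3), and peaks were called with MACS2 2.2.7.1 and assigned to genes with HOMER 4.11.1, per the study's methods and the submitters' processing notes. How peaks were merged over libraries and the counter are not given in the sources used here. For the mapping, the study's methods name an Ensembl release of the mouse genome that rests on GRCm38, but the deposited coordinates are not those of GRCm38, so their build is uncertain. The starts of 379 of 19828 genes (1.91%) lay within 5 bp of those of GRCm38.p6.

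The authors deposited whole-number counts per peak and CPM, which they scaled to the reads in listed peaks, so a change of equal factor at all peaks would not be seen. The deposited log2 fold change, mean log2 CPM, score (an F statistic), p-value and adjusted p-value of the authors' own comparison were not used. Counts were scaled by TMM and compared with edgeR 4.0.16 (quasi-likelihood, no covariate, no filter, two-sided, Benjamini-Hochberg over 35486 peaks or 20871 genes, threshold 0.05) in R 4.3.3. The alternatives were limma 3.58.1 on log2(CPM + 1), DESeq2 1.42.0, total-read, upper-quartile and RLE scaling, a filter (mean of at least 10 CPM for peaks, edgeR's filterByExpr for genes), an added 1.5-fold change, other ways to sum a gene, and leaving out each library.

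The members and lists were chosen with earlier results of these data known. Named genes were every member, up to 3 called genes by smallest p and the first gene of each other list, the nearest listed peaks within 50 kb of a called peak, and the 3 promoter peaks most like the member peak with the smallest p. The dendritic cell genes with a peak were all named as well. Promoter windows are RefSeq's and were matched by symbol. Windows of *Spi1*, *Adgre1* and *Csf1r* were not in the table used. Some results under this rule are not reported here.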

Additional observations from a re-analysis of the deposited data

How the results depend on the processing

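Member peaks called higher numbered 2 and lower 2. An added 1.5-fold change left 1 higher, the filter on low values 1 higher and 1 lower, and DESeq2 0 of each, while upper-quartile scaling gave 4 higher. Leaving out each library gave 0 to 2 in either direction. Member genes called higher (3) fell to 1 with a 1.5-fold change and 1 under DESeq2 and ran from 0 to 2 with a library left out, and those called lower (1) from 0 to 1. Over all peaks, 1099 were higher and 1960 lower: 712 higher with a 1.5-fold change, 33 and 244 under DESeq2, 2122 higher with upper-quartile scaling, and 0 to 702 and 0 to 1459 with a library left out. Over all genes, 1122 were higher and 2010 lower: 378 and 990 with a 1.5-fold change, 119 and 336 under DESeq2, 707 higher with the peak nearest the start, and 0 to 649 and 0 to 1305 with a library left out. The other lists' 33 and 17 became 10 and 7 with a 1.5-fold change, 7 and 2 under DESeq2, 18 higher with the nearest peak, and 0 to 23 and 0 to 13 with a library left out. Where 1 library was left, it was assumed to vary like the other group.

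The sign of the log2 fold change turned for *Itgax*: for the gene to -0.0082 (limma), -0.0065 (total reads) and -0.014 (upper quartile), with -0.071 to 0.065 over the fits without a library, and for the peak to -8.53e-04 (DESeq2), -0.017 (filter), -0.0082 (limma) and -0.0065 (total reads), with -0.068 to 0.065 without a library. Without a library it also turned for the *Adgre1* peak 22.6 kb upstream (-0.41 to 0.095) and the *Mrc1* exon peak (-0.31 to 0.43). The filter kept 20543 peaks and 11 of the 21 and left out the called peaks of *P2rx1* and of *Lyz2* downstream. No paired analysis was possible because the groups compared share no replicate number. Depth limits the weaker peaks, at 9 to 30 reads in a library.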
